A study of Homo sapiens with 4 samples.

Results

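The genes of the histone deacetylase (HDAC) and corepressor complexes were examined in DU145 prostate cancer cells in which the neddylation factor DCUN1D1 had been knocked down. The list holds 44 genes named for their function, the HDACs, subunits of the SIN3, NuRD, CoREST and NCOR complexes and some partners. It was drawn up with earlier results of these data known, among them the low values of SAP30L, ZFPM1 and EMSY. A probe set is a group of short probes against 1 stretch of a transcript. Every probe set whose platform annotation names exactly 1 gene, and that gene a listed one, was taken. This gave 123 probe sets for 42 genes, of 40914 probe sets for 19774 genes on the array. ARID4A, a SIN3 subunit, and NCOR1, the scaffold of the NCOR complex, have no such probe set and were not analysed here, so the NCOR group holds its WD40 and GPS2 subunits only.

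RNA of 4 cultures was measured, each on its own Affymetrix array. The knockdown group was 2 cultures of DU145 cells carrying a lentiviral shRNA against DCUN1D1 (shDCUN1D1), and the control group was 2 cultures of DU145 cells carrying an shRNA against GFP (shGFP). The labels call the samples biological duplicates and state 16 h of growth in DMEM before RNA extraction from all 4, while the methods count the harvest from infection. The labels also name DMSO without a dose or the cells that received it. DU145 is an established, androgen-insensitive line, so all values come from 1 line. The methods mention more than 1 shRNA against DCUN1D1, and the sources used here do not say which was used for which array, so the replicate and the shRNA cannot be told apart. Values are the deposited log2 signals, and a change is the knockdown mean minus the shGFP mean on that scale.

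HDACs remove acetyl groups from lysines, above all on histone tails, and acetyl removal from chromatin is generally tied to lower transcription. The nuclear class I enzymes HDAC1 and HDAC2 work inside the SIN3, NuRD and CoREST complexes and HDAC3 inside the NCOR complex, to which DNA-bound factors bring them. SIN3 is built on a scaffold protein, NuRD joins deacetylation to an ATP-dependent nucleosome remodeller, CoREST joins it to a histone demethylase, and NCOR serves unliganded nuclear receptors. In prostate cells these complexes act with the androgen receptor and with other repressors.

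Most of the 40914 probe sets were dim. Background on each array was read from a control probe set that matches no transcript and whose probes hold 20 bases of G or C, called the nonspecific control below. It read 2.48 and 2.51 in the knockdown arrays and 2.97 and 3.30 in the shGFP arrays. The brightest probe set, taken as the one with the highest mean over the 4 arrays, lay above that control in 78.6% and 50.0% of the 42 genes in the knockdown arrays and in 59.5% and 35.7% in the shGFP arrays. Over all genes the shares were 27.8% and 23.3% in the knockdown arrays and 15.2% and 10.4% in the shGFP arrays. It lay above the control in all 4 arrays for 10 of the 42 genes and in none for 8. Of the 23 nonspecific control probe sets, 20 were lower in both knockdown arrays than in both shGFP arrays. The median of the 23 was 1.33 and 1.38 in the knockdown arrays and 1.56 and 1.73 in the shGFP arrays, lower than the control with 20 bases of G or C. A value under that control can therefore lie above the median of the 23. Knockdown replicate 1 stood apart in the 3′ probe set of GAPDH, a housekeeping enzyme, at 10.8, against 5.09 in knockdown replicate 2 and 5.02 and 4.68 in shGFP cells. The 5′ probe set of GAPDH read 9.67, against 7.14, 6.6 and 6.42 in the same order. For actin (ACTB) the 3′ probe set read 8.30, against 4.35, 4.05 and 3.95, and the 5′ one 9.21, against 8.79, 8.52 and 8.06. The gap was thus wider at the 3′ end in both genes. The part of these array differences in the changes below was not tested.

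DCUN1D1 itself was dim. Its brightest probe set read 1.60 and 1.45 in knockdown cells, against 2.55 and 1.99 in shGFP cells, a log2 fold change of −0.75 (standard error (SE) 0.26). Both knockdown values lay below both shGFP values, but all 4 were under the nonspecific control, though above the median of the 23 control probe sets of their array. Of its 6 probe sets, 4 were lower and 2 higher, and 0 were past the fold bound. Of the 5 epithelial markers, KRT8, KRT18, KRT19, EPCAM and CDH1, only KRT8 was above the nonspecific control in all 4 arrays, and CDH1, KRT19 and EPCAM were above it in none. A dimmer probe set of KRT8 was called lower. The summed log2 signal of the 5 was 16.4 and 10.8 in knockdown cells, against 10.9 and 12.5 in shGFP cells. That of 16.4 held KRT18 at 7.62 in knockdown replicate 1, against 1.69 in knockdown replicate 2 and 1.68 and 1.63 in shGFP cells. The brightest probe sets of the 3 endothelial and 3 leukocyte markers measured were above the control in no array. Of the 4 fibroblast markers 3 were above it in none, while COL1A1 was above it in all 4, at 3.51 and 4.75 in knockdown cells, against 3.38 and 4.06 in shGFP cells, and another COL1A1 probe set was called lower (change −1.85). The arrays measure RNA per amount of labelled RNA, so fewer cells making a transcript and less of it per cell cannot be told apart.

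A probe set was called past the fold bound when the lower end of the 90% interval of its fold change exceeded 1.2, with limma's moderated standard error. By this rule 2 of the 123 probe sets were called higher (1.63%) and 7 lower (5.69%) after DCUN1D1 knockdown. Over all 40914 probe sets 1.18% were called higher and 2.38% lower, and since the low values of SAP30L, ZFPM1 and EMSY were known when the list was made, the comparison of these shares is a description. The 7 lower probe sets stand for 7 genes: SAP30L, EMSY and SIN3A of the SIN3 group, ZFPM1 of NuRD, RCOR1 of CoREST, TBL1X of NCOR, and HDAC10. The 2 higher ones were for GATAD2A of NuRD and TBL1XR1 of NCOR. By adjusted p under 0.05 from limma (Benjamini–Hochberg over all 40914), 0 were called among the 123 and 0% among all probe sets, the smallest adjusted p being 0.625. At an unadjusted p under 0.05 from limma, 3 of the 123 were higher and 8 lower. Of all 40914, 939 were higher and 2146 lower, so the shares among these genes lay near those over all probe sets.

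The balance of directions depended on how the arrays were scaled. Centring each array on its nonspecific controls moved the median change of all genes to 0.28, against −0.01 on the deposited scale, and gave 9 probe sets of these genes higher and 4 lower, with 2590 higher and 322 lower over all. Under that scaling SAP30L, ZFPM1, EMSY and HDAC10 stayed past the bound as lower, and SIN3A, RCOR1 and TBL1X did not, at −1.04, −0.65 and −0.72. Taking only whether the arrays overlap, both knockdown values lay above both shGFP values in 28 of the 123 probe sets (22.8%, against 17.9% of all) and below both in 31 (25.2%, against 25.0% of all). With 2 arrays in each group, an exact permutation test of 1 probe set cannot go below a two-sided p of 0.33.

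**Figure D1:**
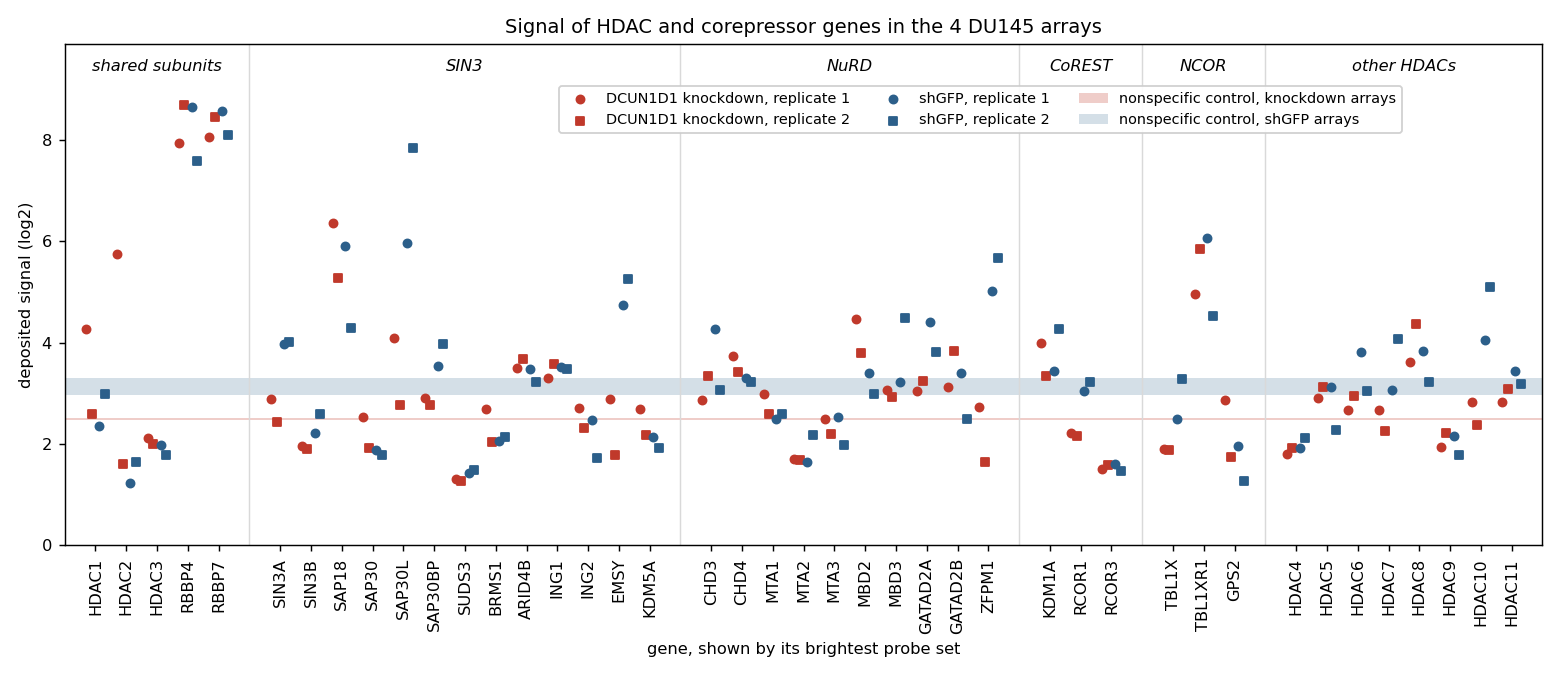
Deposited log2 signal (y axis) of the brightest probe set of each of the 42 genes (x axis, ordered by complex), with 1 point per array, knockdown in red and shGFP in blue, and bands for the range of the nonspecific control in each group. RBBP4 and RBBP7 read 7.58 or more in all 4 arrays, while SIN3A, SAP30L, EMSY, ZFPM1 and HDAC10 have both knockdown points under both shGFP points by more than 1 log2 unit.

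The histone chaperones and catalytic subunits that several complexes share showed no call in either direction. RBBP4, a WD40 protein that holds histone H4 in SIN3 and NuRD, was among the brightest of these genes, at 7.94 and 8.70 in knockdown cells, against 8.66 and 7.58 in shGFP cells. Its change was 0.20 (SE 0.57), and the groups overlapped. Its paralogue RBBP7 read 8.05 and 8.46 in knockdown cells, against 8.57 and 8.10 in shGFP cells, a change of −0.08 (SE 0.43). Both groups overlapped here too.

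HDAC1 and HDAC2 were high in knockdown replicate 1 only. HDAC1, measured by 1 probe set, read 4.28 and 2.59 in knockdown cells, against 2.35 and 2.996 in shGFP cells, a change of 0.76 (SE 0.67). HDAC2 read 5.75 and 1.61 in knockdown cells, against 1.23 and 1.64 in shGFP cells, a change of 2.25 (SE 1.33). Knockdown replicate 2 lay within the range of the shGFP arrays for both genes, and the other HDAC2 probe set had a change of −0.11. A probe set of RBBP4 that is not its brightest had the same shape, with 5.14 and 1.83 in knockdown cells, against 1.45 and 1.44 in shGFP cells. The HDAC2 probe set and this one were the 2 of the 123 that read more than 2 log2 units higher in knockdown replicate 1 than in every other array, a pattern of 1416 of all probe sets (3.46%). HDAC3, the enzyme of the NCOR complex, was under the nonspecific control throughout, at 2.13 and 2.01 in knockdown cells, against 1.97 and 1.78 in shGFP cells (change 0.19, SE 0.21).

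In the SIN3 group 13 genes were measured by 45 probe sets. Of these, 3 were called lower (6.67%, against 2.38% of all) and 0 higher (against 1.18%). Among the 3, SAP30L and EMSY were known to be low when the list was made. SAP30L, a SAP30 paralogue that ties SIN3A and HDAC1 to target sites, had the lowest change of the brightest probe sets of all 19774 genes. It read 4.09 and 2.77 in knockdown cells, against 5.97 and 7.85 in shGFP cells, a change of −3.48 (SE 0.92, adjusted p = 0.625 from limma) with a lower end of the interval at 3.08-fold. Both knockdown arrays were well below both shGFP arrays, and all 4 were above the nonspecific control. EMSY, a repressor that binds BRCA2 and is found with SIN3 and KDM5A, read 2.88 and 1.78 in knockdown cells, against 4.75 and 5.27 in shGFP cells. Its change was −2.68 (SE 0.58, adjusted p = 0.625 from limma), with a lower end at 2.86-fold. Only knockdown replicate 2 was under the nonspecific control for this gene. SIN3A, the scaffold, read 2.89 and 2.44 in knockdown cells, against 3.98 and 4.01 in shGFP cells, a change of −1.33 (SE 0.41).

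The other probe sets of these 3 genes did not move with the brightest one. Changes were −0.03 to 0.21 in the 5 further SAP30L probe sets, −0.20 to 0.58 in the 5 of EMSY and 0.00 to 0.96 in the 3 of SIN3A, none of them called. For SIN3A the probe set with the change of 0.96 read 2.15 and 2.70 in knockdown cells, against 1.95 and 0.97 in shGFP cells, so 2 probe sets of the scaffold had opposite directions without overlap between the groups. The mean over all probe sets of the gene was −0.49 for SAP30L, −0.36 for EMSY and −0.09 for SIN3A, and none of the 3 was past the bound by that measure.

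Among the other genes of the SIN3 group 0 were called. SIN3B, the second scaffold, read 1.96 and 1.90 in knockdown cells, against 2.23 and 2.60 in shGFP cells, all under the control (change −0.48, SE 0.25). SAP18, a small subunit shared with RNA-processing complexes, was bright, at 6.36 and 5.28 in knockdown cells, against 5.91 and 4.29 in shGFP cells, and the groups overlapped (change 0.72, SE 0.85). SAP30BP, a SAP30-binding protein, read 2.90 and 2.76 in knockdown cells, against 3.54 and 3.98 in shGFP cells, without overlap (change −0.93, SE 0.41). ING1, a reader of trimethylated histone H3, was flat, at 3.31 and 3.58 in knockdown cells, against 3.53 and 3.49 in shGFP cells (change −0.06, SE 0.42). SAP30 read 2.54 and 1.92 in knockdown cells, against 1.89 and 1.77 in shGFP cells (change 0.40, SE 0.28). The brightest probe sets of SUDS3, BRMS1, ARID4B, ING2 and KDM5A, a histone H3 demethylase, had changes of −0.17 to 0.42.

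The NuRD group held 10 genes and 26 probe sets. Of these, 1 probe set was called higher (3.85%, against 1.18% of all) and 1 lower (3.85%, against 2.38%). The lower one was for ZFPM1, a partner of NuRD known to be low when the list was made. ZFPM1, also known as FOG1, the GATA-factor partner that brings NuRD to its sites, read 2.74 and 1.64 in knockdown cells, against 5.01 and 5.68 in shGFP cells. Its change was −3.16 (SE 0.60, adjusted p = 0.625 from limma), with a lower end at 3.85-fold, the highest lower end among these genes. The groups were far apart, and knockdown replicate 2 was under the nonspecific control. The other ZFPM1 probe set was flat (change 0.03), at 3.05 and 3.23 in knockdown cells, against 3.33 and 2.89 in shGFP cells.

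CHD4, the remodelling ATPase, had a brightest probe set at 3.74 and 3.43 in knockdown cells, against 3.31 and 3.23 in shGFP cells (change 0.31, SE 0.41). All 3 of its probe sets had both knockdown values above both shGFP values, with changes of 0.31 to 0.96, and 0 of them passed the bound. MBD2, which binds methylated DNA, read 4.47 and 3.81 in knockdown cells, against 3.40 and 2.996 in shGFP cells, also without overlap (change 0.94, SE 0.50). MBD3, its paralogue in a separate form of NuRD, read 3.06 and 2.92 in knockdown cells, against 3.22 and 4.49 in shGFP cells (change −0.86, SE 0.57), a difference that lay mostly in shGFP replicate 2. MTA2, a scaffold that holds HDAC1, was under the control in every array, at 1.71 and 1.68 in knockdown cells, against 1.65 and 2.18 in shGFP cells (change −0.22, SE 0.24).

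GATAD2A, which bridges the MBD and CHD subunits, had probe sets in opposite directions. The called one read 2.37 and 2.60 in knockdown cells, against 1.71 and 1.48 in shGFP cells, a change of 0.89 (SE 0.23, adjusted p = 0.625 from limma). The brightest one, above the nonspecific control in all 4 arrays, read 3.05 and 3.24 in knockdown cells, against 4.42 and 3.82 in shGFP cells, a change of −0.98 (SE 0.47). Neither pair of groups overlapped, and the mean over its 6 probe sets was 0.04. CHD3, MTA1, MTA3 and GATAD2B had changes of −0.55 to 0.53 in their brightest probe sets.

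SAP30L, ZFPM1 and EMSY were the 3 genes here with the lowest changes, each by 1 probe set, and their promoters are shown for that reason. Each sequence is a 300-base window from upstream of the gene's start to a short way past it, from the RefSeq table of GRCh38.p14, which gave 65 promoters for 42 of the 44 listed genes. Capitals mark 3 motifs, searched on both strands: the GC box with the letters GGGCGG, the box spelled CCAAT, and the TATA box with the letters TATAAA. Overlapping copies run together. SAP30L lies at chr5:154445747-154446046, ZFPM1 at chr16:88453030-88453329 and EMSY at chr11:76444768-76445067, all on the plus strand.
SAP30L: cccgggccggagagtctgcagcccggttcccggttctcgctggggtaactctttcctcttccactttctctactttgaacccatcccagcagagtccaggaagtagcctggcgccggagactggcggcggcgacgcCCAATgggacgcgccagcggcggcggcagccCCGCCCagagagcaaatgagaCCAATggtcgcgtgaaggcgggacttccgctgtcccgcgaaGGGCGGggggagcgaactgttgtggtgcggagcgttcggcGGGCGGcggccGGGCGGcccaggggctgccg
ZFPM1: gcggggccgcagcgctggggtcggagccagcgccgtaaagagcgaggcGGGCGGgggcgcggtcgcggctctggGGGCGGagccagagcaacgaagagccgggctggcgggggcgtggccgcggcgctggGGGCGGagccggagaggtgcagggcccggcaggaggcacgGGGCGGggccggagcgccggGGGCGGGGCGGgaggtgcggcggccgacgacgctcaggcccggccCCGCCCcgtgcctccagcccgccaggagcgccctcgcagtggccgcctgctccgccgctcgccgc
EMSY: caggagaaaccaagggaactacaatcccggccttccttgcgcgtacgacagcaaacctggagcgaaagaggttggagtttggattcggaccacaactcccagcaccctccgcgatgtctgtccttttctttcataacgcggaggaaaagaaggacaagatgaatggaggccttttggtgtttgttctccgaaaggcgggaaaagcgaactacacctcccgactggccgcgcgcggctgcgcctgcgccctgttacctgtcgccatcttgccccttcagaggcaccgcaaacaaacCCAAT

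None of the motifs occurred in all 3 promoters. That of SAP30L holds 4 GC boxes and 2 CCAAT boxes, that of ZFPM1 holds 7 GC boxes and 0 CCAAT boxes, and that of EMSY holds 0 GC boxes and 1 CCAAT box. None of the 3 holds TATAAA. Their G and C content was 69.7%, 83.0% and 56.0%, against a median of 68.7% over the 65 promoters of the listed genes and 58.7% over all 35116 promoters in the table. A GC box occurs in 43 of the 65 and in 45.0% of all promoters, a CCAAT box in 25 of the 65 and in 34.6% of all, and TATAAA in 4 of the 65 and in 11.5% of all. These letters describe the windows only.

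The CoREST group held 3 genes and 6 probe sets. Of these, 1 probe set was called lower (16.7%, against 2.38% of all) and 0 higher (against 1.18%). The share of 16.7% rests on that 1 probe set. KDM1A, the demethylase LSD1 of the complex, was above the nonspecific control in all arrays, at 3.99 and 3.35 in knockdown cells, against 3.45 and 4.26 in shGFP cells. The groups overlapped (change −0.19, SE 0.55). RCOR1, the scaffold that links it to nucleosomes and HDACs, read 2.23 and 2.16 in knockdown cells, against 3.05 and 3.22 in shGFP cells, a change of −0.94 (SE 0.29, adjusted p = 0.625 from limma). Only shGFP replicate 1 was above its array's nonspecific control. The other RCOR1 probe set read 2.55 and 1.32 in knockdown cells, against 1.34 and 1.48 in shGFP cells (change 0.52). RCOR3, a paralogue, was flat and dim, at 1.51 and 1.58 in knockdown cells, against 1.61 and 1.47 in shGFP cells (change 0.00, SE 0.14).

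The NCOR group held 3 genes and 12 probe sets. Of these, 1 probe set was called higher (8.33%, against 1.18% of all) and 1 lower (8.33%, against 2.38%). The calls were for the paralogues TBL1XR1 and TBL1X, in that order. Both are WD40 subunits that take part in the exchange of corepressors for coactivators. TBL1XR1 was called by a probe set with 2.74 and 2.41 in knockdown cells, against 1.78 and 1.65 in shGFP cells, a change of 0.86 (SE 0.24, adjusted p = 0.625 from limma). Its brightest probe set, far above the controls, read 4.96 and 5.84 in knockdown cells, against 6.06 and 4.52 in shGFP cells, and the groups overlapped (change 0.11, SE 0.81). TBL1X was called lower at 1.90 and 1.87 in knockdown cells, against 2.50 and 3.29 in shGFP cells, a change of −1.01 (SE 0.35, adjusted p = 0.625 from limma). All 4 TBL1X values were under the nonspecific controls, and its other 4 probe sets had changes of −0.07 to 0.39, none called. GPS2, a subunit that also restrains JNK signalling, read 2.87 and 1.74 in knockdown cells, against 1.97 and 1.28 in shGFP cells (change 0.68, SE 0.46).

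Of the 8 HDACs outside these cores, measured by 22 probe sets, 1 probe set was called lower (4.55%, against 2.38% of all) and 0 higher. It was for HDAC10, a mainly cytoplasmic enzyme known as a polyamine deacetylase, with 2.83 and 2.38 in knockdown cells, against 4.05 and 5.10 in shGFP cells. The change was −1.96 (SE 0.56, adjusted p = 0.625 from limma), with a lower end at 1.80-fold. The other HDAC10 probe set had the same direction without overlap, at 2.27 and 2.34 in knockdown cells, against 2.69 and 3.28 in shGFP cells (change −0.68). The mean over both HDAC10 probe sets, −1.32, was past the bound. HDAC7, a class IIa enzyme, read 2.67 and 2.27 in knockdown cells, against 3.06 and 4.07 in shGFP cells, a change of −1.10 (SE 0.48) that was not called. HDAC6, the tubulin deacetylase, HDAC11 and, by a narrow margin, the class IIa enzyme HDAC4 also had both knockdown values below both shGFP values in their brightest probe sets, with changes of −0.62, −0.36 and −0.16. Of the 3 probe sets each of HDAC4 and HDAC6, 2 were lower and 1 higher. Of the 2 each of HDAC7 and HDAC11, 1 was lower and 1 higher. The higher ones had changes of 0.06 to 0.17. Over the 22 probe sets, both knockdown values lay below both shGFP values in 8 (36.4%, against 25.0% of all) and above both in 4 (18.2%, against 17.9% of all). The brightest probe sets of HDAC5, HDAC8 and HDAC9 had changes of 0.11 to 0.46.

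**Figure D2:**
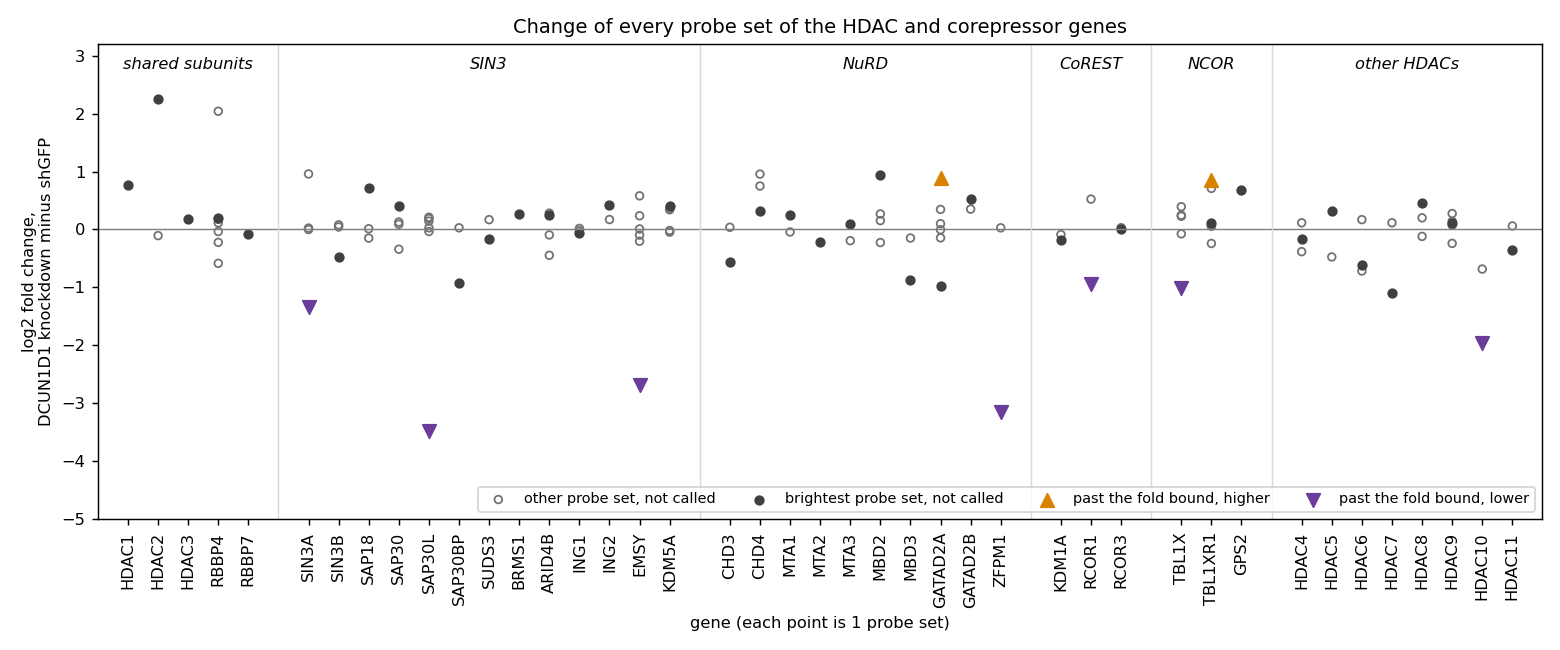
Log2 fold change, knockdown minus shGFP (y axis), of each of the 123 probe sets by gene and complex (x axis); filled points are the brightest probe set of a gene, open points its others, and triangles the 9 probe sets past the fold bound. The triangles of SAP30L, EMSY and ZFPM1 lie at −3.48, −2.68 and −3.16, while their other probe sets lie between −0.20 and 0.58.

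The SIN3, NuRD, CoREST and NCOR groups had median changes that lay close to that of all genes or whose sign turned with the array left out or the scaling. Each gene counted once, by its brightest probe set, the median change was −0.06 in SIN3, −0.06 in NuRD, −0.19 in CoREST, 0.11 in NCOR, 0.20 in the shared subunits and −0.26 in the other HDACs, against −0.01 over all genes. The CoREST median is that of 3 genes. It was −0.59 without shGFP replicate 1 and 0.11 with arrays centred on the nonspecific controls, where the median of all genes was 0.28. The NCOR median, also of 3 genes, was 0.88 without shGFP replicate 1, −0.34 without knockdown replicate 2 and −0.58 after quantile normalization. The SIN3 and NuRD medians were 0.19 and 0.13 without shGFP replicate 1. Both were 0.23 with the arrays centred on the controls, where all genes lay at 0.28. The median of the shared subunits was above 0 whichever array was left out, 0.095 to 0.44, and 0.49 with that centring. The median of the other HDACs was below 0 whichever array was left out, −0.35 to −0.17, but was 0.03, under the 0.28 of all genes, with arrays centred on the controls. It was −0.03 over every probe set of these 8 HDACs and −0.15 over gene means. Their median signal per array was 2.75 and 2.66 in knockdown cells, against 3.29 and 3.11 in shGFP cells, without overlap. The same held in SIN3, at 2.88 and 2.33 in knockdown cells, against 3.48 and 3.23 in shGFP cells, in CoREST, where RCOR1 gives the median, and over all 42 genes, at 2.88 and 2.52 in knockdown cells, against 3.27 and 3.12 in shGFP cells. SAP30L and EMSY, known to be low when the list was made, are among the SIN3 genes and the 42. By gene, 21 of the 42 were higher and 21 lower in their brightest probe sets, with a median change of −0.03. The nonspecific control was also lower in the knockdown arrays, at 2.48 and 2.51, against 2.97 and 3.30 in the shGFP arrays. The array medians overlapped in NuRD, NCOR and the shared subunits. They also overlapped over all genes, at 1.85 and 1.88 in knockdown cells, against 1.88 and 1.85 in shGFP cells. These all-gene medians lie at a dimmer level than those of the 42 genes. The medians are given with no test.

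**Figure D3:**
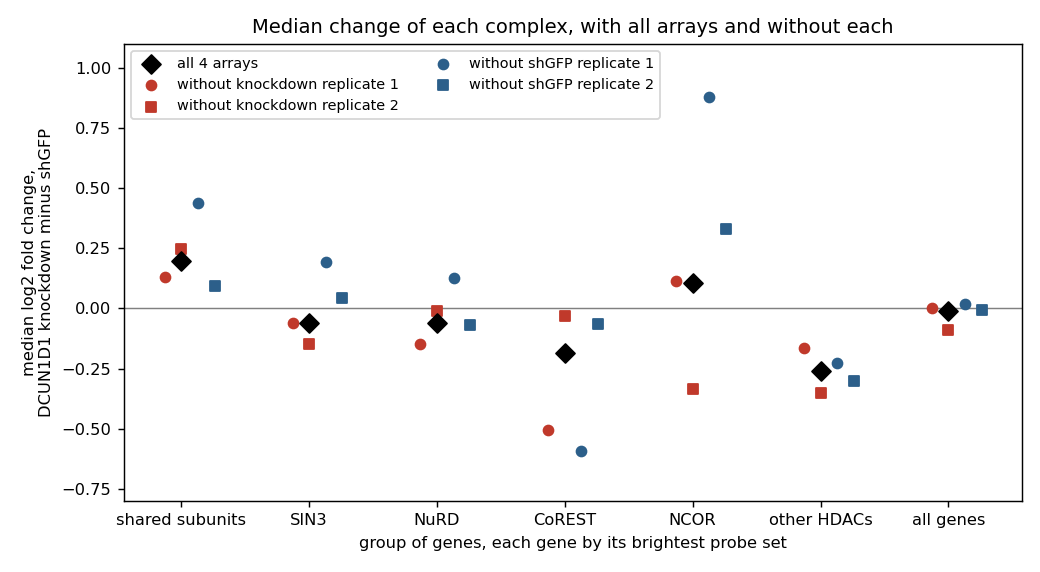
Median log2 fold change, knockdown minus shGFP (y axis), over the genes of each group and over all genes (x axis), with all 4 arrays (black diamonds) and without each array in turn (coloured points). The points of SIN3, NuRD and NCOR fall on both sides of 0 (NCOR from −0.34 to 0.88). Those of CoREST and the other HDACs stay below 0 on the deposited scale, and those of the shared subunits above it (0.095 to 0.44). With arrays centred on the nonspecific controls, a setting not drawn here, the medians of CoREST and the other HDACs were 0.11 and 0.03.

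Which array carried the calls was examined by leaving out each in turn. Each such fit sets 2 arrays against 1, takes the spread from the group that kept 2 and from limma's prior, and assumes that the lone array varies alike. Over all probe sets the number called higher ranged from 47 to 4008 among these 4 fits. Under that assumption SAP30L, ZFPM1 and EMSY were past the bound whichever array was left out. Their changes were −4.42 to −2.55, −3.70 to −2.61 and −3.24 to −2.13. Their low values in these same arrays were known when the list was made, so this gives them no independent support. HDAC10 and the called GATAD2A probe set lost the call only without shGFP replicate 2, at −1.44 and 0.77. RCOR1 lost it whichever of the 4 arrays was left out (−1.03 to −0.85), TBL1X without each array but shGFP replicate 1 (−1.02 to −0.61), SIN3A without each but knockdown replicate 1 (−1.34 to −1.10) and TBL1XR1 without each but knockdown replicate 2 (0.70 to 0.92). In all 7 lower probe sets shGFP replicate 2 read above shGFP replicate 1 and knockdown replicate 1 above knockdown replicate 2. Of the 974 probe sets called lower over the array, the shGFP order was the same in 762 and the knockdown order in 612. Of all 40914, the shGFP order was the same in 20176 and the knockdown order in 16173. With each probe set's own spread in place of limma's moderated error, SAP30L and TBL1X were not past the bound. The part of shGFP replicate 2 in these calls was not tested beyond these values.

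The probe sets of 1 gene rarely moved together. Of the 42 genes, 36 had several probe sets, and for 29 of the 36 these had changes of both signs, for 3 all were lower and for 4 all were higher. How often this holds over all genes was not counted. Each of the 7 lower calls was on the brightest probe set of its gene, and 0 of the 7 genes had a second probe set called. Over the array, 670 of the 974 probe sets called lower were the brightest of their gene, and the 974 stood for 928 genes. The 20 other probe sets of the 7 genes were higher in 14 cases and lower in 6. The gene means over all probe sets were −1.56 to −0.04, and ZFPM1 and HDAC10 were past the bound by that measure. Of the 7 lower probe sets 1 was designed on a RefSeq transcript by its annotation, that of SAP30L, against 18.7% of the 123 and 23.9% of all probe sets.

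Calls also went with signal. Ranked by mean signal among all probe sets, 0 of the 47 probe sets of these genes in the dimmer 50% were called lower, 2 of the 47 between the 50th and the 90th percentile (4.26%) and 5 of the 29 in the brightest 10% (17.2%). Over all probe sets the shares were 0.547%, 3.31% and 7.82%. Since 29 of the 123 were in the brightest 10%, these genes were also brighter than the array as a whole, with a median mean signal of 1.83 against 1.66. The part of signal in the 5.69% called lower was not tested.

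**Figure D4:**
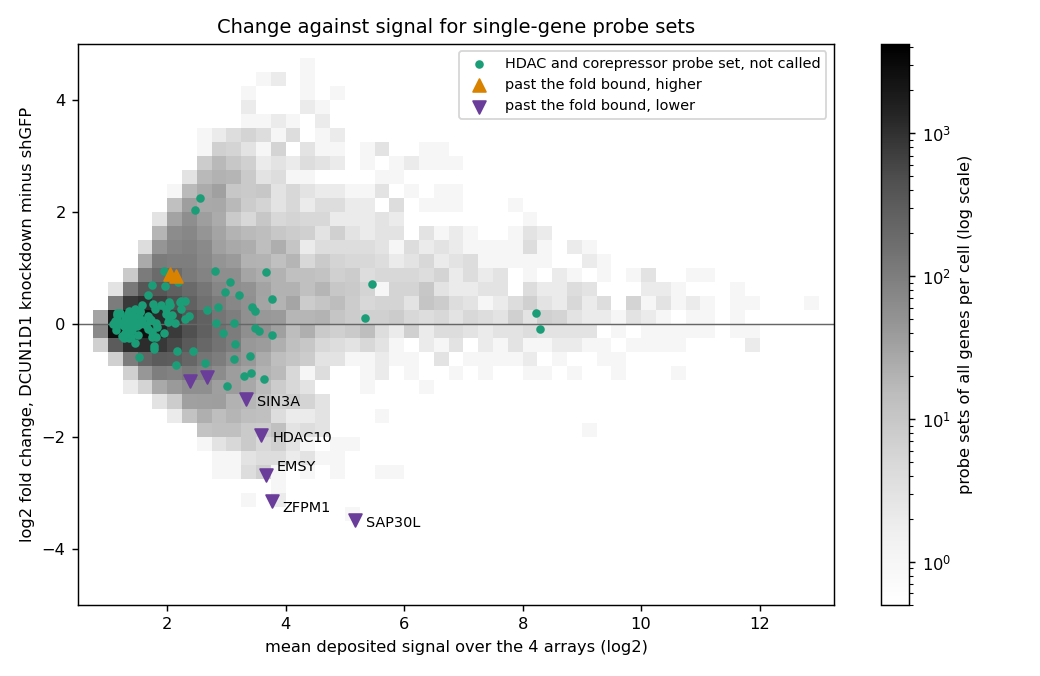
Log2 fold change, knockdown minus shGFP (y axis), by mean signal in all 4 arrays on the log2 scale (x axis) for all 40914 probe sets, as grey counts per cell on a log scale, and for the 123 probe sets of these genes as points, with triangles for those past the fold bound. SAP30L lies at the bottom of the plot at −3.48, and SIN3A, HDAC10, EMSY and ZFPM1 lie below 0 at mean signals under 4.

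Beyond the listed genes, 28 of 30 further corepressor subunits were measured by 86 probe sets, of which 2 were called higher (2.33%, against 1.18% of all) and 0 lower (against 2.38%). SINHCAF, a SIN3–HDAC subunit with a single probe set, read 4.02 and 3.01 in knockdown cells, against 2.46 and 2.03 in shGFP cells, a change of 1.26 (SE 0.47, adjusted p = 0.625 from limma). CTBP1, a corepressor that senses NADH, was called by a probe set with 2.81 and 3.06 in knockdown cells, against 2.08 and 2.11 in shGFP cells (change 0.84, SE 0.28), while its brightest probe set overlapped, at 6.61 and 7.76 in knockdown cells, against 7.27 and 6.95 in shGFP cells.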

How the data were processed

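RNA was labelled from 1 µg of total RNA per culture and hybridised to 4 single-channel arrays, 2 per group. The values are log2 signals, 1 per probe set and array, made and deposited by the authors. The submitters' notes name Affymetrix Expression Console, the study's methods name dChip with spline normalisation and another array type, and which made the table is not settled here. It has no detection calls, and arrays have no read depth: precision rests on 2 arrays per group and on signal over background.

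Of 54715 probe sets, 864 naming several genes, 12835 naming none and 102 controls were left out. limma 3.58.1 (R 4.3.3; lmFit, eBayes with a variance trend, group only) was fitted to the other 40914, with Benjamini–Hochberg adjustment at 0.05. The 90% bound of 1.2-fold follows the study's rule, not its software. The fit was tested on simulated data. The gene IDs of all 42 measured genes matched the RefSeq table. Members, lists and tests were chosen with earlier results of these data known, SAP30L, ZFPM1 and EMSY among them. Named were all probe sets past the bound, the brightest of each gene above background in 4 arrays, fixed core subunits, and up to 4 called genes of each further list. Alternatives changed scaling, filter, probe set unit, variance model, replicate block, arrays and call rule. P-values measure the spread between cultures as labelled.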

Additional observations from a re-analysis of the deposited data

How the results depend on the processing

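The 9 called probe sets had the same direction under each alternative that held them. Alternatives of variance model, replicate block or call rule leave the change itself as it was, so they could not turn its direction. Nor could leaving out 1 array, since the groups did not overlap in any of the 9. The called GATAD2A and TBL1XR1 probe sets had no value with 1 probe set per gene, where GATAD2A stood at −0.98 by its brightest, and these 2, RCOR1 and TBL1X had none under the filter on the nonspecific control. Counts of these genes' probe sets past the bound, 2 higher and 7 lower, were 5 and 11 with a one-sided 90% bound, 0 and 4 with a bound of 1.5-fold, 9 and 4 centred on nonspecific controls, 0 and 0 at an adjusted p under 0.05 from limma, and 0 and 2 for gene means over probe sets. With 1 probe set per gene 0 were higher, and likewise 0 with only probe sets above the nonspecific control in both arrays of a group, a filter chosen after seeing the data. Without 1 array, with the spread taken from the group that kept 2 arrays and limma's prior, they were 0 to 12 higher and 3 to 8 lower. With the replicate number as a block, 4 were lower in place of 7, and SIN3A, RCOR1 and TBL1X lost the call. Same-numbered arrays did not deviate together over the probe sets (correlation −0.04). With knockdown replicate 1 standing apart, that value cannot tell whether same-numbered arrays were handled together. Quantile normalization, median centring, a filter at the median signal and a robust prior left both counts as they were.

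Over all probe sets, 481 higher and 974 lower, the counts were 1529 and 1735 (one-sided bound), 105 and 310 (1.5-fold), 2590 and 322 (centred on controls), 172 and 412 (mean over probe sets), 0 and 0 (adjusted p from limma) and 939 and 2146 (unadjusted p under 0.05). They were 311 higher with 1 probe set per gene, 297 higher with unmoderated standard errors, 452 lower with the filter on the nonspecific control, and 47 to 4008 higher and 503 to 1374 lower without 1 array. Unmoderated errors lost SAP30L and TBL1X.

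Medians moved most in the smallest groups. CoREST (−0.19) was −0.62 after quantile normalization, 0.11 centred on controls, −0.56 above the median signal, 0.0037 with shared subunits, −0.042 over every probe set and −0.59 to −0.031 without 1 array. NCOR (0.11) was −0.58 after quantile normalization and −0.34 to 0.88 without 1 array. NuRD (−0.06) was 0.23 centred on controls, 0.15 with shared subunits and −0.15 to 0.13 without 1 array. The causes were not tested. Signal over background limits the genes under the nonspecific control.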

Other observations

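Other genes of lysine acetylation were read beside the shares over all probe sets, 1.18% called higher and 2.38% lower. Of 7 sirtuins, the NAD-dependent deacetylases, measured by 17 probe sets, 1 probe set was called higher (5.88%) and 2 lower (11.8%). SIRT1, a nuclear enzyme, read 2.22 and 1.95 in knockdown cells, against 1.21 and 1.23 in shGFP cells (change 0.86, SE 0.17), all under the nonspecific control. SIRT2, mainly cytoplasmic, read 3.61 and 3.48 in knockdown cells, against 5.12 and 5.87 in shGFP cells (change −1.95, SE 0.59), all above it. The other SIRT2 probe set was flat (change −0.04). SIRT5, a mitochondrial desuccinylase, was called lower by a probe set with 2.07 and 1.96 in knockdown cells, against 3.67 and 2.76 in shGFP cells. Its other probe sets had changes of −1.12 to 0.47, none called, and at both ends of that range the groups did not overlap. Of 12 histone acetyltransferases measured by 34 probe sets, 0 were called higher and 1 lower (2.94%), a dim probe set of NCOA1 (change −0.75, SE 0.20), while the brightest NCOA1 probe set read 3.95 and 4.74 in knockdown cells, against 3.504 and 1.76 in shGFP cells.

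Of 14 neuronal genes held down by REST and CoREST in other cells, measured by 24 probe sets, 0 were called in either direction. Both knockdown values lay above both shGFP values in 2 of the 24 (8.33%, against 17.9% of all) and below both in 10 (41.7%, against 25.0% of all). Of 5 genes that HDAC inhibitors are known to raise, measured by 17 probe sets, 2 probe sets were called higher (11.8%) and 0 lower. TXNIP, an inhibitor of thioredoxin, read 6.54 and 3.61 in knockdown cells, against 1.80 and 1.51 in shGFP cells (change 3.42, SE 1.01), and was highest in knockdown replicate 1. GSN, the actin-severing protein gelsolin, read 3.89 and 4.01 in knockdown cells, against 2.89 and 2.01 in shGFP cells (change 1.503, SE 0.46). The other GSN probe sets had changes of −0.23 to 0.01, none called. CDKN1A, the cell cycle inhibitor p21, read 2.90 and 3.15 in knockdown cells, against 3.12 and 3.60 in shGFP cells, and was not called. CLU was flat in its brightest probe set (change −0.08). MT1X read 3.17 and 2.08 in knockdown cells, against 1.57 and 1.81 in shGFP cells, and was not called. Of the 17 probe sets of these genes 9 were higher and 8 lower. All adjusted p-values were 0.625 or more (limma).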
